A study of Mus musculus with 20 samples.

Results

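Metalloproteinases cut the matrix around cells and release proteins from cell surfaces. The genes described here are those for 5 matrix metalloproteinases (Mmp8, Mmp9, Mmp12, Mmp14 and Mmp19), 3 ADAM proteinases (Adam8, Adam10 and Adam17) and 2 tissue inhibitors (Timp1 and Timp2), 10 genes in all. They were chosen by gene symbol, with earlier results of these data known. Of the 10 genes, 9 were among the 14456 genes listed in the deposited table of normalised read counts, and Timp1 was not analysed here. The RNA came from mouse bone marrow-derived macrophages (BMDM), grown with M-CSF from the marrow of wild-type male C57BL/6J mice of 8 to 12 weeks, and was sequenced as 20 libraries in 5 groups of 4.

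In the glucose experiment, BMDM spent 24 h in medium with 25 mM glucose (high glucose), or with 5.5 mM glucose and 19.5 mM mannitol, a sugar alcohol that keeps the osmolarity equal (normal glucose). Only the normal glucose medium had added mannitol, so more glucose and less mannitol cannot be told apart in this comparison. In the exosome experiment, naive BMDM received PBS, or exosomes at 2000000000 particles per ml for 24 h. Exosomes are small vesicles that cells release. Those called BMDM-NG-exo came from BMDM cultured in normal glucose and those called BMDM-HG-exo from BMDM cultured in high glucose. Each of these 3 groups has 1 library for each of 4 dates in the labels, and libraries of the same date carry the same number from 1 to 4, which does not follow the order of the dates. All cells were primary cultures of 1 mouse strain and 1 sex, and no intact animal was measured. Each exosome library had its own exosome preparation, by the study's account. The sources do not say whether the cells of a group came from separate mice, so the p-values measure the spread between these libraries, part of which may be technical.

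Matrix metalloproteinases are zinc enzymes made as inactive precursors, and together they cut collagens, elastin, proteoglycans and many soluble proteins. ADAM proteinases sit in the membrane and shed the outer parts of other membrane proteins, among them cytokines and receptors. Tissue inhibitors of metalloproteinases bind the active site of matrix metalloproteinases and block it. In macrophages the balance of enzymes and inhibitors is known for its part in the remodelling of atherosclerotic plaques.

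The libraries held between 34016445 and 56310712 reads over the listed genes, with a median of 43311931. The deposited values are read counts divided by a size factor per library, and levels are given below as these normalised counts. All 8 of the macrophage markers examined were listed. Their summed level was 632264 to 707940 in normal glucose, against 807259 to 876678 in high glucose. In the exosome experiment it was 794308 to 839125 after PBS, 719778 to 774231 after BMDM-NG-exo and 736292 to 759010 after BMDM-HG-exo. These sums are mostly Lyz2, lysozyme, and they did not overlap between high and normal glucose or between PBS and either exosome group. The single markers did not move as 1 block. In high glucose 3 of the 8 were higher without overlap (Adgre1, Csf1r and Lyz2), 3 were lower without overlap (Cd68, Mrc1 and Mertk) and 2 overlapped. After either exosome 5 of the 8 were lower than PBS without overlap (Adgre1, Csf1r, Itgam, Lyz2 and Fcgr1), and Cd68, Mrc1 and Mertk overlapped with PBS. The part of these markers in the results below was not tested. Of 10 neutrophil markers 5 were listed, with sums of 165 to 378 across the 20 libraries, and the defining marker Ly6g was not among them. Of 6 dendritic cell markers 1 was listed (sums of 68.0 to 157), of 7 fibroblast markers 4 (110 to 373), of 4 B cell markers 1 (17.4 to 68.0), and none of the T cell, mast cell or erythroid markers.

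The ADAM genes and Timp2 were far more abundant than the matrix metalloproteinases. To compare genes with each other, the normalised count was divided by the length of the longest annotated transcript in kilobases. In normal glucose Adam8 then stood highest, at 8102 ± 350.1 per kb (SD, n = 4), followed by Timp2 at 3145 ± 155, Adam17 at 2623 ± 80.9 and Adam10 at 1805 ± 78.3. The first of the matrix metalloproteinases was Mmp12 at 453 ± 17.7 per kb, ahead of Mmp19 at 287 ± 8.38, Mmp8 at 221 ± 24.6 and Mmp14 at 81.0 ± 15.6. Mmp9 was lowest, at 5.03 ± 3.36 per kb, and had only 2 to 56 reads in a library. After PBS the levels per kb of Mmp12, Mmp19 and Mmp8 lay close together, at 395 ± 36.3, 383 ± 9.64 and 381 ± 65.2. The order within this group depended on the length used. Over all 20 libraries Mmp12 averaged 461 per kb of its longest transcript but 285 per kb of all its annotated exons, against 346 by either length for Mmp8, and Adam17 (2648 or 1654) changed places with Adam10 (1855 or 1734).

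**Figure D1:**
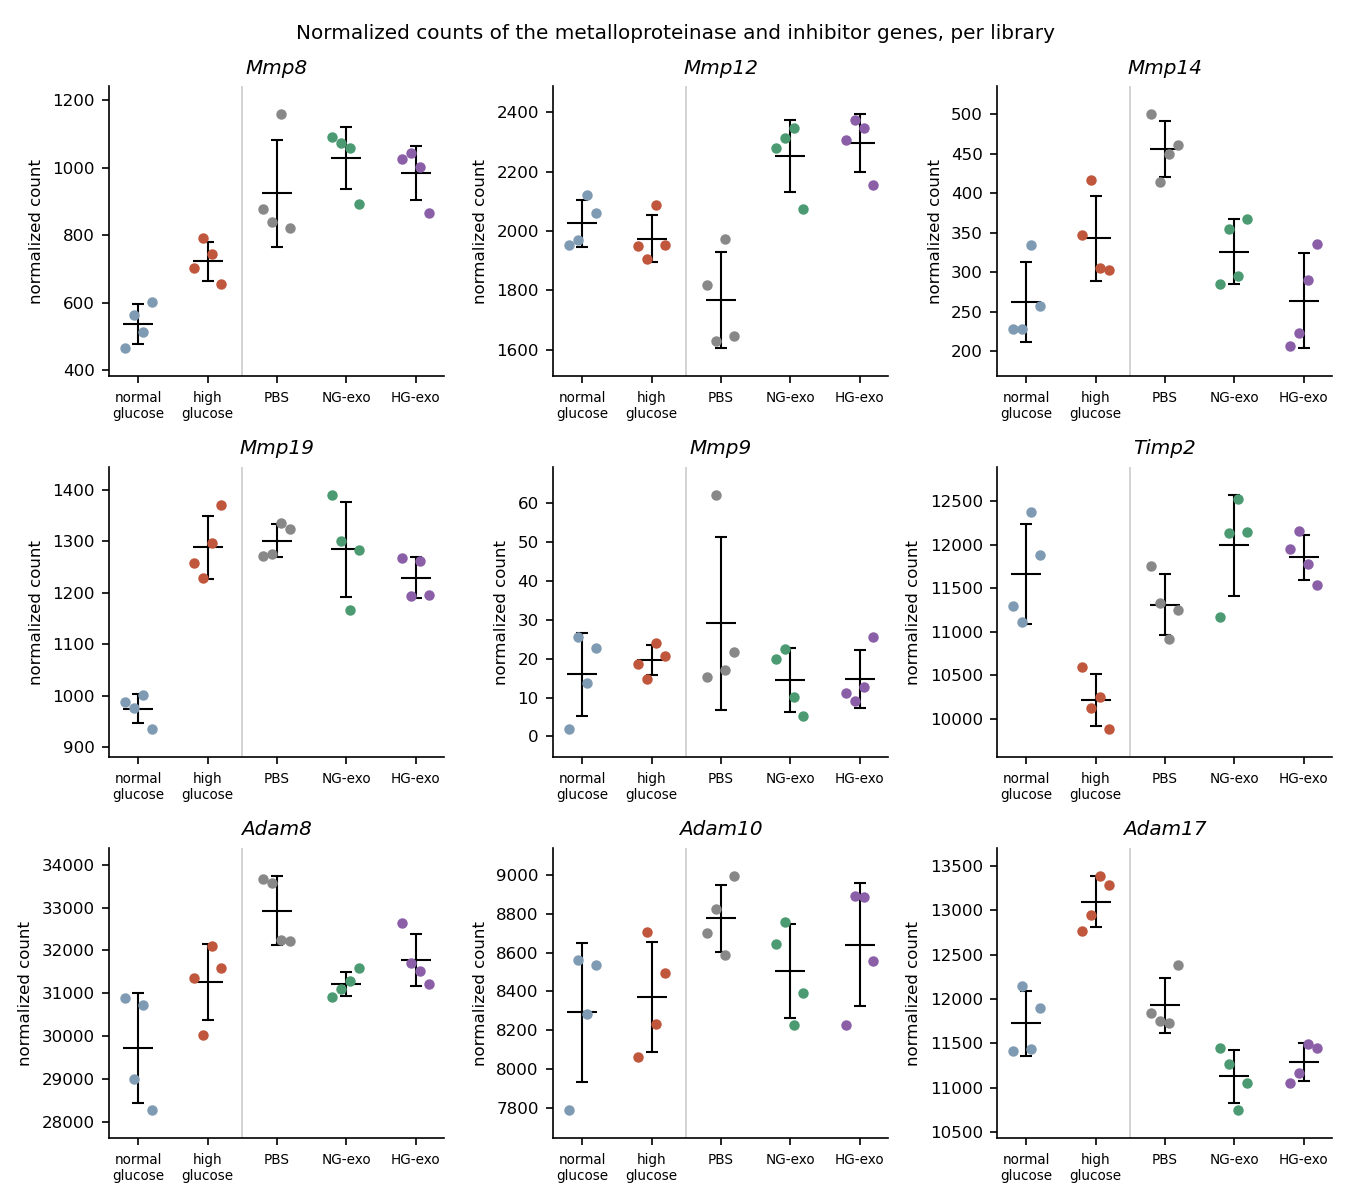
Normalised read count of the 9 listed genes in each library, 1 panel per gene, with groups along the horizontal axis. Points are libraries, bars are the mean and SD of 4 libraries, and the vertical axes do not start at 0. High glucose lies wholly above normal glucose for Mmp8, Mmp19 and Adam17 and wholly below it for Timp2. Both exosome groups lie above PBS for Mmp12 and below it for Mmp14.

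The first comparison asked how the metalloproteinases of BMDM differed in high glucose from normal glucose with mannitol. Mmp19, Mmp8 and Adam17 rose and the inhibitor Timp2 fell. Of the 9 genes tested, 3 rose and 1 fell, while over all 14425 genes tested 13.3% were called in either direction. The median log2 fold change of the 9 genes was 0.16, against -0.0031 for all genes. As the genes were chosen with earlier results of these data known, such comparisons with all genes, here and below, are descriptions only. Calls in this comparison are limma tests on log2(normalised count + 1) with a Benjamini-Hochberg adjusted p under 0.05. As the RNA is from bulk cultures, fewer cells of a type and less RNA per cell cannot be told apart in any of these values.

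Mmp19 encodes a secreted metalloproteinase of the basement membrane and lies on chromosome 10 from 128790910 to 128800824 (GRCm38, plus strand). Its normalised counts in normal glucose were 988, 976, 1001 and 935, and those in high glucose were 1258, 1229.6, 1296 and 1370.0. Every high glucose library was above every normal glucose library. The mean went from 975 ± 28.5 to 1288 ± 60.8 (SD, n = 4), a log2 fold change of 0.40 (SE 0.065) with an adjusted p of 2.31e-05 in limma. Mmp19 was also lower in normal glucose than in any exosome group, at 1302 ± 32.8 after PBS, 1285 ± 92.0 after BMDM-NG-exo and 1229.7 ± 40.5 after BMDM-HG-exo, although the glucose and exosome libraries were separate experiments and were not tested against each other. The means of PBS, high glucose, BMDM-NG-exo and BMDM-HG-exo, in falling order, overlapped between neighbours.

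Mmp8, neutrophil collagenase, which cuts fibrillar collagens and is also made by macrophages, lies on chromosome 9 from 7558456 to 7568485 (plus strand). It gave normalised counts of 465, 564, 513 and 601.5 in the normal glucose libraries and 702, 791, 744 and 656 in the high glucose libraries. The 4 high glucose libraries again lay above all 4 normal glucose libraries. The mean rose from 536 ± 59.6 to 723 ± 57.7, 1.35-fold, with a log2 fold change of 0.44 (SE 0.091) and an adjusted p of 0.000856 in limma. Among the 5 groups Mmp8 stood lowest in the glucose experiment, and its means of 924 ± 158 after PBS, 1028 ± 91.85 after BMDM-NG-exo and 984 ± 79.9 after BMDM-HG-exo overlapped with each other. The summed neutrophil markers were 254 to 378 in normal glucose, and in high glucose 211 to 258.

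Adam17, the sheddase that releases tumour necrosis factor, lies on chromosome 12 from 21323509 to 21373632 (minus strand). Its counts in normal glucose were 11410.2, 12148, 11435 and 11899, against 12764, 12949, 13380.3 and 13287 in high glucose, with no overlap between the groups. The rise was small, 1.12-fold, from 11723 ± 362 to 13095 ± 288, with a log2 fold change of 0.16 (SE 0.035) and an adjusted p of 0.00136. High glucose was the highest of the 5 groups for Adam17 and overlapped with none of the others. The call was lost after quantile normalisation, where the log2 fold change was 0.084 (adjusted p = 0.103), and in a limma fit without a variance trend (adjusted p = 0.0763).

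Timp2, an inhibitor of most matrix metalloproteinases that also takes part in the activation of pro-MMP2 by MMP14, lies on chromosome 11 from 118301069 to 118355740 (minus strand). In normal glucose it gave 11298, 11108, 12373 and 11886 counts, and 10593, 10121, 10255 and 9881 in high glucose. All 4 high glucose libraries lay below the normal glucose libraries and below every exosome library. The log2 fold change was -0.19 (SE 0.038), a fall to 0.876 of the normal glucose level, with an adjusted p of 0.000411. Without a variance trend the adjusted p was 0.0783. Timp2 overlaps a gene on the same strand, Cep295nl, so reads may have been shared between them. The other 3 groups with normal glucose overlapped, from 11311 ± 346 after PBS to 11991 ± 577 after BMDM-NG-exo.

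Mmp14, the membrane-bound metalloproteinase MT1-MMP that cuts collagen at the cell surface, gave 228, 228, 335 and 257 counts in normal glucose libraries and 347, 417, 305 and 302.5 in high glucose libraries. Normal glucose library 5, at 335, fell within the high glucose range. The log2 fold change of 0.39 (95% interval 0.12 to 0.67) had an unadjusted p of 0.00677 and an adjusted p of 0.0506, just outside the threshold. It was called by edgeR (adjusted p = 0.0498) and DESeq2 (0.0471) on the recovered reads, and by limma after quantile normalisation (0.0366), when low genes with a mean under 50 were dropped (0.0430), without normal glucose library 5 (0.0134) or without high glucose library 4 (0.0499). The other 9 of 13 alternative settings did not call it (limma, adjusted p up to 0.2033). Neither did the other 6 of 8 fits that left out 1 library (limma, up to 0.2255).

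The remaining 4 genes did not pass the test in high glucose. Adam8, an ADAM of myeloid cells with a role in their migration, was at 29726 ± 1284 and 31272 ± 889 (log2 fold change 0.07, adjusted p = 0.164 in limma). Adam10, the sheddase of Notch receptors and several chemokines, was at 8292 ± 359.7 and 8373 ± 284, with a 95% interval of the log2 fold change from -0.06 to 0.09. Mmp12, macrophage elastase, was at 2026 ± 79.1 and 1974 ± 79.1, with an interval from -0.15 to 0.07. Mmp9, gelatinase B, was at 15.96 ± 10.7 and 19.55 ± 3.835, from 2 to 27 reads in normal glucose and 14 to 25 in high glucose. Its interval of -0.47 to 1.80 includes both a fall and a rise, and neither was detected. The groups did not overlap for 4 of the 9 genes (Mmp8, Mmp19, Timp2 and Adam17), beside 16.3% of all genes tested.

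**Figure D2:**
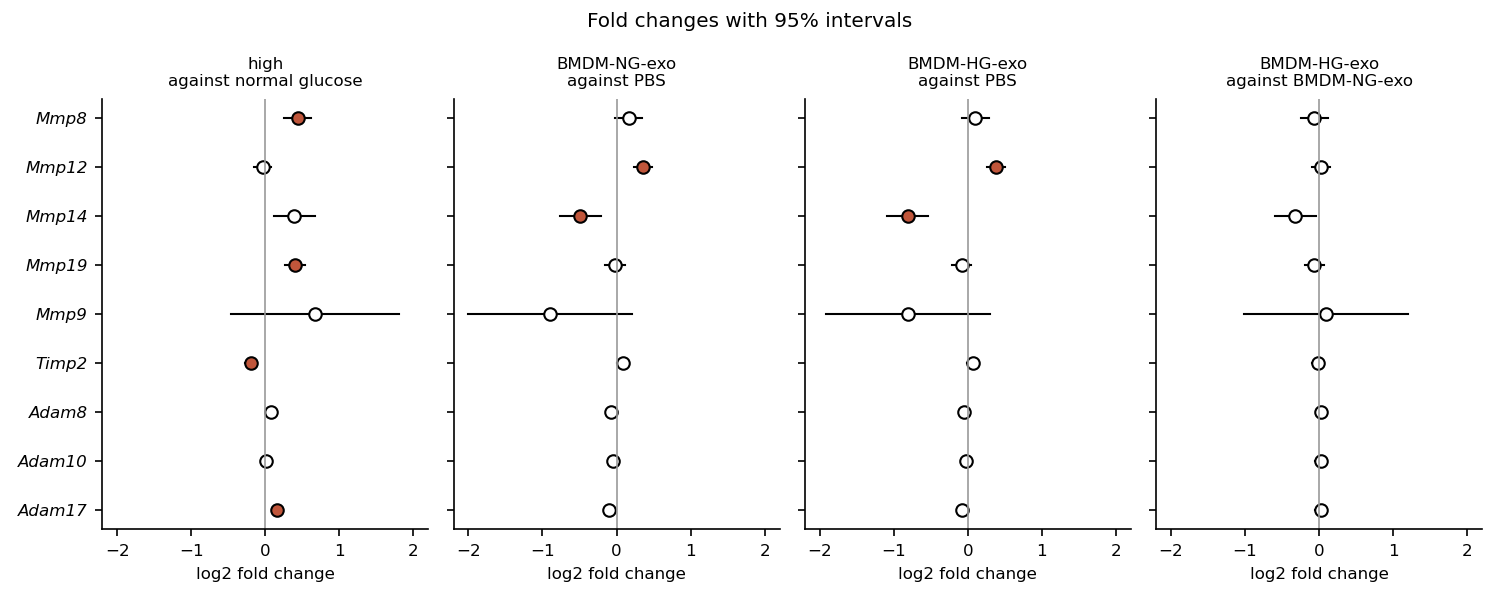
Log2 fold change of each of the 9 genes in 4 comparisons, with 95% intervals from limma. Filled points passed the rule for a call in that comparison and open points did not. Mmp8, Mmp19 and Adam17 lie above 0 and Timp2 below it in high glucose, Mmp12 above and Mmp14 below in both exosome groups against PBS, and no point is filled for BMDM-HG-exo against BMDM-NG-exo.

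The next comparisons asked what exosomes did to naive BMDM. Of the 9 genes, Mmp12 rose and Mmp14 fell after BMDM-NG-exo as well as after BMDM-HG-exo, and the other 7 were not called in either. A call here also needed a log2 fold change of at least 0.15 in size. The 2 of 9 genes called stand beside 3% of all 14413 genes tested for BMDM-NG-exo against PBS and 4.84% for BMDM-HG-exo against PBS. Both comparisons use the same 4 PBS libraries, so their results are not independent of each other.

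Mmp12, macrophage elastase, lies on chromosome 9 from 7344381 to 7369499 (plus strand) and degrades elastin. Its normalised counts were 1817, 1631, 1975 and 1646 after PBS, 2281, 2314, 2346 and 2075 after BMDM-NG-exo and 2308, 2375, 2348 and 2156 after BMDM-HG-exo. All 8 exosome libraries lay above all 4 PBS libraries. The means were 1767 ± 162, 2254 ± 122 and 2297 ± 97.75. Against PBS the log2 fold change was 0.35 (SE 0.060, adjusted p = 0.000203 in limma) for BMDM-NG-exo and 0.38 (SE 0.060, adjusted p = 3.33e-05) for BMDM-HG-exo, or 1.28-fold and 1.30-fold. Without a variance trend the adjusted p for BMDM-NG-exo was 0.0567. Within the 4 label dates the log2 difference from PBS was 0.25 to 0.50 for BMDM-NG-exo and 0.25 to 0.54 for BMDM-HG-exo. Across the 5 groups the falling order was BMDM-HG-exo, BMDM-NG-exo, normal glucose, high glucose and PBS, and each neighbouring pair overlapped.

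The annotated starts of Mmp12 and Mmp14 are shown as sequence because these genes moved in opposite directions with exosomes, and Mmp8 and Adam17 because they rose in high glucose. Each run is the 250 bases before a RefSeq transcript start (GRCm38.p6), read 5′ to 3′ on the strand of the gene, at chr9:7344147-7344396 and chr9:7347124-7347373 for Mmp12, chr14:54431348-54431597 for Mmp14, chr9:7558179-7558428 for Mmp8, all plus strand, and chr12:21373633-21373882, minus strand, for Adam17. Capitals mark the only match to any of the 5 motifs searched on both strands in these windows.
Mmp12 first start: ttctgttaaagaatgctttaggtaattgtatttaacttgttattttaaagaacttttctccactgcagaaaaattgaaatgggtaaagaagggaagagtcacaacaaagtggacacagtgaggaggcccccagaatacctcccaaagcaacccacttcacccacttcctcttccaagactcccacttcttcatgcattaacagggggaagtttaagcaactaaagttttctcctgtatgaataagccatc
Mmp12 second start: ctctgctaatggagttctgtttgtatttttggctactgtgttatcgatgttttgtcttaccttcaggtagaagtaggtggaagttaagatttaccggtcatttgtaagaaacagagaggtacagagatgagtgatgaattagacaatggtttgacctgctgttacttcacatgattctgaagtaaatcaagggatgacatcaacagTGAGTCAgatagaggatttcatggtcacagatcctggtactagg
Mmp14: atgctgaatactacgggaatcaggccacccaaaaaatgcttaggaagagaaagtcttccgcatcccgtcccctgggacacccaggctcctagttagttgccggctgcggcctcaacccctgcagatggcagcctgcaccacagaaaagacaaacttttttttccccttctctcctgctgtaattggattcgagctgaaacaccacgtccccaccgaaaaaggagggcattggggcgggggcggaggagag
Mmp8: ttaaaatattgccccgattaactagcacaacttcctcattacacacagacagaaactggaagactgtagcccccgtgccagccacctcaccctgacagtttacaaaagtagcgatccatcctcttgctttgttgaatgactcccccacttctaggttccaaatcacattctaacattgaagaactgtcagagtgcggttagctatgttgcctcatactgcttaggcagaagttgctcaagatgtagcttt
Adam17: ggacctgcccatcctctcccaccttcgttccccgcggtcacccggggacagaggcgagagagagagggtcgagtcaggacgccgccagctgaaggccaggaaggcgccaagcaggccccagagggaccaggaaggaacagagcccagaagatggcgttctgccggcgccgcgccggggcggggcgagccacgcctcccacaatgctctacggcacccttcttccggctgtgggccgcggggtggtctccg
The motifs were AP-1 (TGANTCA), STAT (TTCNNNGAA), an E-box (CACGTG), NF-kB and an interferon response element. The AP-1 match lies 44 to 38 bases before the second Mmp12 start, within the annotated Mmp12 gene. Of 32851 promoter windows of the same length, 6.75% hold that motif. The NF-kB motif is in 17.6% of them, the STAT motif in 7.02%, the E-box in 6.02% and the interferon motif in 2.98%. The first Mmp12 window is 40.0% G or C, the second 39.6%, Mmp14 55.2%, Mmp8 44.8% and Adam17 70.4%, against a median of 52.4% over all windows. A match is only a run of letters, and no binding was measured.

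Mmp14 lies on chromosome 14 from 54431612 to 54445364 (plus strand). Its counts were 500.2, 414, 449 and 461.5 after PBS, 285, 355, 296 and 368 after BMDM-NG-exo and 206, 223, 291 and 335 after BMDM-HG-exo. Every exosome library lay below every PBS library, and the libraries of the 2 exosome groups overlapped. The means were 456 ± 35.4, 326 ± 41.4 and 264 ± 60.0. The log2 fold change against PBS was -0.49 (SE 0.14, adjusted p = 0.0352 in limma) for BMDM-NG-exo and -0.81 (SE 0.14, adjusted p = 8.61e-05) for BMDM-HG-exo, that is, 0.712 and 0.570 of the PBS level. The first of these calls was lost without PBS library 1 (adjusted p = 0.128), 3 (0.0602) or 4 (0.0828), without BMDM-NG-exo library 1 (0.125) or 3 (0.132), and without a variance trend, where neither Mmp12 nor Mmp14 was called for BMDM-NG-exo. Across all 5 groups the falling order was PBS, high glucose, BMDM-NG-exo, BMDM-HG-exo and normal glucose, with overlap between each neighbouring pair.

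**Figure D3:**
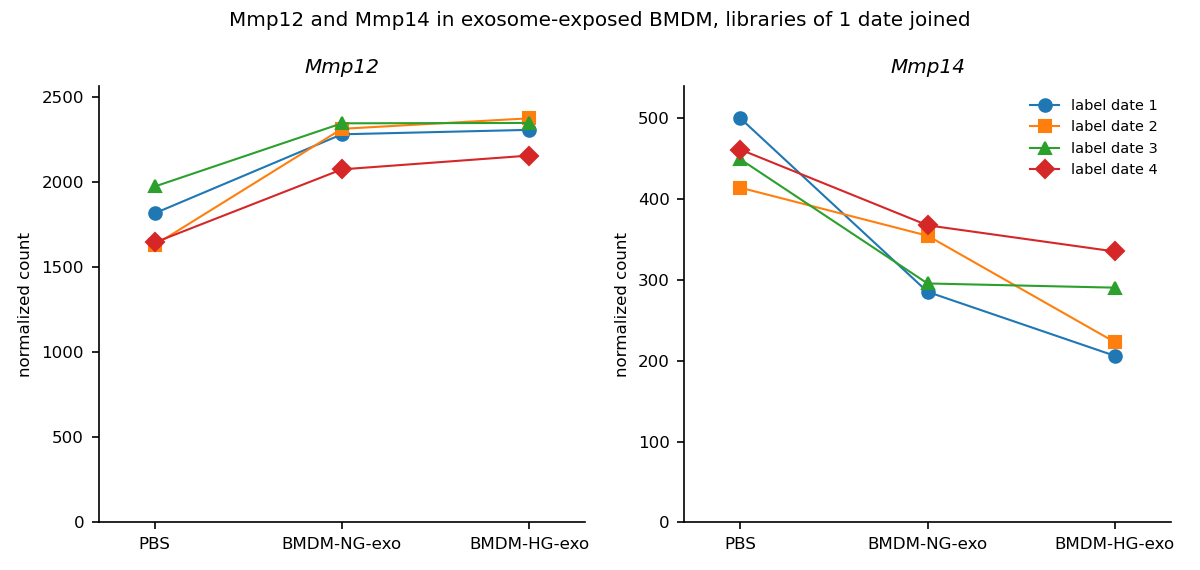
Normalised read count of Mmp12 and Mmp14 in the exosome experiment, with the vertical axis from 0. Each line joins the 3 libraries of 1 label date, from PBS to BMDM-NG-exo to BMDM-HG-exo. Mmp12 is higher and Mmp14 lower than PBS after either exosome on all 4 dates.

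The other 7 genes gave smaller or more variable differences from PBS. Adam17 was lower on all 4 dates after both exosomes, at 11450.0, 11264, 10746 and 11050.3 after BMDM-NG-exo and 11054, 11168, 11492 and 11447 after BMDM-HG-exo, against 11842, 11746, 11733 and 12384 after PBS. The groups did not overlap, but the log2 fold changes of -0.10 and -0.08 had adjusted p of 0.115 and 0.212 in limma. Adam8 was at 32927 ± 804 after PBS, 31218 ± 285 after BMDM-NG-exo and 31770.3 ± 609.5 after BMDM-HG-exo, with adjusted p of 0.182 and 0.378. Timp2 was at 11311 ± 346, 11991 ± 577 and 11854 ± 261 in the same order, with adjusted p of 0.285 and 0.352. For Mmp8, Mmp19 and Adam10 the adjusted p lay between 0.451 and 0.939 in both comparisons. Mmp9 had means of 29.0 ± 22.2, 14.5 ± 8.11 and 14.7 ± 7.47, where PBS library 2 alone reached 62.0. Counted by overlap, 4 of the 9 genes were separate from PBS after BMDM-NG-exo (Mmp12, Mmp14, Adam8 and Adam17), beside 8.27% of all genes, and 4 after BMDM-HG-exo (Mmp12, Mmp14, Mmp19 and Adam17), beside 10%.

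The comparison of BMDM-HG-exo with BMDM-NG-exo asked whether the glucose given to the donor cells mattered for the recipients. None of the 9 genes was called by limma, beside 0.0139% of all genes. Of the 9, edgeR and DESeq2 called none either, where over all genes they called 1 and 24. In limma 1 of the 9 had an unadjusted p under 0.05, beside 942 of all 14413 genes tested. The gene at an unadjusted p under 0.05 was Mmp14, which was lower after BMDM-HG-exo on all 4 dates, by log2 differences of -0.67 to -0.03. Its log2 fold change was -0.32 (95% interval -0.60 to -0.05), with an unadjusted p of 0.0238 and an adjusted p of 0.678 in limma. For Mmp12 the interval was -0.09 to 0.15, for Mmp8 -0.25 to 0.12, for Mmp19 -0.19 to 0.07, for Timp2 -0.09 to 0.06 and for Adam17 -0.05 to 0.09. None of the 9 genes had separate groups here, beside 3.86% of all genes.

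BMDM-HG-exo was also set against PBS and BMDM-NG-exo pooled as 8 control libraries, which shares its libraries with the comparisons above. None of the 9 genes was called by limma, beside 0.201% of all genes. In limma 2 of the 9 had an unadjusted p under 0.05, beside 1511 of all 14413 genes tested. Mmp14 had a log2 fold change of -0.57 (SE 0.14) and an adjusted p of 0.0744, and Mmp12 one of 0.20 (SE 0.080) and an adjusted p of 0.336. DESeq2 called Mmp14 (adjusted p = 0.0237) among 138 genes in all, and edgeR, with 32 calls in all, called none of the 9. The limma fit over all 20 libraries called both Mmp14 (0.0038) and Mmp12 (0.0116). Mmp14 was also called by limma without BMDM-NG-exo library 1 (0.0312) or 3 (0.0192) or BMDM-HG-exo library 4 (0.0481). In 11 of 13 alternative settings it was not called (limma or edgeR, adjusted p up to 0.4009). Nor was it called in 9 of 12 limma fits that left out 1 library (up to 0.374). Mmp12 was not called in 12 of 13 alternative settings (limma, edgeR or DESeq2, up to 0.6213). All 12 limma fits that left out 1 library also left Mmp12 uncalled (up to 0.555).

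The change with glucose was then compared with the change from BMDM-NG-exo to BMDM-HG-exo, as an interaction over all 20 libraries. The question was whether exosomes from high glucose cells moved a gene as high glucose itself did. The difference of changes was called for 4 of the 9 genes, beside 4.74% of all genes tested. It was 0.46 (SE 0.087, adjusted p = 0.000488 in limma) for Mmp19, 0.50 (SE 0.13, adjusted p = 0.0182) for Mmp8, 0.71 (SE 0.20, adjusted p = 0.0266) for Mmp14 and -0.18 (SE 0.053, adjusted p = 0.0417) for Timp2, all on the log2 scale. With the replicate number as a block, only Mmp19 was called. This block pairs the exosome libraries of the same date, but the glucose libraries by numbers that mark no known pairing. As the 2 glucose groups share only the numbers 1 and 6, the blocked glucose change rests on those libraries alone. The blocked values were 0.42 (adjusted p = 0.174) for Mmp8, 0.74 (0.0966) for Mmp14 and -0.16 (0.222) for Timp2. For Adam17 the difference was 0.14, with an adjusted p of 0.0819 in limma and of 0.0231 in DESeq2, and limma called it without BMDM-NG-exo library 3 (0.0483). Of the 20 fits that each left out 1 library, Mmp19 was called in 20, Mmp8 in 18, Mmp14 in 13 and Timp2 in 9. Mmp8 was lost without BMDM-HG-exo library 4 or high glucose library 2, and Mmp14 without BMDM-NG-exo library 2 or 4, BMDM-HG-exo library 1 or 2, normal glucose library 1 or 3 or high glucose library 2, where its adjusted p was at most 0.0880. Timp2 was lost without BMDM-NG-exo library 1, 2 or 4, BMDM-HG-exo library 1, 2 or 3, normal glucose library 5 or 6 or high glucose library 2, 4 or 6, with an adjusted p of at most 0.146.

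The make-up of the matrix metalloproteinase transcripts differed between groups. Of 10 listed Mmp genes, Mmp12, Mmp8 and Mmp19 together made up most of the summed level per kb in every group. Mmp12 took 34.7% ± 0.18 (SD, n = 4) of that sum in normal glucose, 30.7% ± 1.17 in high glucose, 25.5% ± 0.75 after PBS, 30.4% ± 0.97 after BMDM-NG-exo and 31.9% ± 0.51 after BMDM-HG-exo. The share of Mmp19 went from 22.0% ± 1.03 in normal to 26.3% ± 1.56 in high glucose, and that of Mmp8 from 16.9% ± 1.79 to 20.7% ± 1.30. Mmp14 took 9.13% ± 0.94 after PBS, 6.08% ± 0.87 after BMDM-NG-exo and 5.09% ± 1.28 after BMDM-HG-exo. The summed Mmp level per kb stood at 41.5% ± 0.76 of the Timp2 level in normal glucose and at 52.3% ± 2.06 in high glucose, with ranges of 40.6% to 42.5% and 49.2% to 53.7%. In the exosome experiment this percentage was 50.9% ± 5.81 after PBS, 51.4% ± 3.32 after BMDM-NG-exo and 50.3% ± 0.56 after BMDM-HG-exo. These shares are descriptions of transcript levels with no test, and enzyme activity was not measured. They use the longest transcript, and the lead of Mmp12 depends on that length. Per kb of all annotated exons Mmp12 was at 280 and Mmp19 at 276 in normal glucose. After PBS Mmp12 was then at 244, below Mmp8 at 381 and Mmp19 at 368.5.

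**Figure D4:**
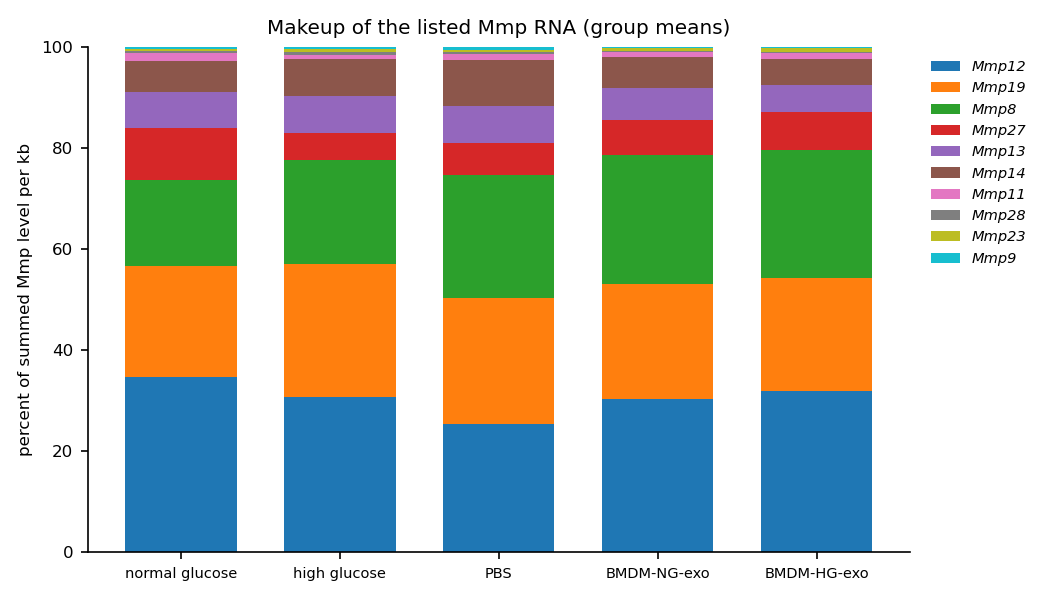
Make-up of the summed matrix metalloproteinase level per kb of the longest transcript in each group, as stacked bars of the group mean percentages of 10 listed Mmp genes, n = 4 libraries per group. The Mmp12 band is widest in normal glucose (34.7%) and narrowest after PBS (25.5%), and the Mmp27 band shrinks from 10.3% in normal to 5.31% in high glucose.

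Mmp12 and Mmp8 belong to a cluster of Mmp genes on chromosome 9. Of 10 Mmp genes annotated there, 4 were listed, and 188956 bases lie between Mmp12 and Mmp8. In high glucose the listed genes of this cluster did not move together. Mmp8 rose, Mmp27 fell from 256 ± 32.3 to 145 ± 24.7 (log2 fold change -0.82, adjusted p = 0.000313 in limma), and Mmp12 and Mmp13 (log2 fold changes -0.04 and 0.15) were not called. Mmp27 was at 187 ± 28.7 after PBS, 217 ± 37.5 after BMDM-NG-exo and 233 ± 21.8 after BMDM-HG-exo and was not called in the comparisons of exosomes with PBS or with each other.

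Genes that work with these proteinases were described from 7 lists of 108 genes, of which 66 were listed in the table. In high glucose 17 of the 65 genes tested rose and 6 fell, that is 35.4%, beside the 13.3% of all genes given above, with a median log2 fold change of 0.07. After BMDM-NG-exo 9 fell and none rose of 66 (13.6%, beside 3% of all genes), and after BMDM-HG-exo 6 fell and 2 rose (12.1%, beside 4.84%). The lists too were chosen with earlier results of these data known, so these shares are descriptions only.

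Among the other proteinases, Adam19 fell in high glucose from 628 ± 55.8 to 371 ± 46.2 (log2 fold change -0.76, adjusted p = 1.02e-06 in limma). Adam22, a member without a working catalytic site, fell from 242 ± 21.0 to 116 ± 13.6 (log2 fold change -1.05, adjusted p = 8.90e-06). Adam15 fell after both exosomes, from 9871 ± 317 after PBS to 8778 ± 571.5 after BMDM-NG-exo (adjusted p = 0.0153) and 8807 ± 488 after BMDM-HG-exo (0.0129). Adamts10 rose in high glucose (log2 fold change 0.19) and fell after BMDM-NG-exo (-0.18), with adjusted p of 0.0283 and 0.0204. The Adam15 calls were lost without PBS library 1 and without library 2 or 3 of the exosome group compared, with adjusted p of 0.0560 to 0.101. For Adamts10 the same libraries of PBS and BMDM-NG-exo ended the call (0.0581 to 0.132), and in high glucose it was lost without normal glucose library 3, 5 or 6 or high glucose library 1, 2 or 6 (0.0638 to 0.131).

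Among activators and inducers, 3 of 7 rose and 1 fell in high glucose (57.1%, beside 13.3% of all genes). The gene that fell was Plau, urokinase, the protease that turns plasminogen into plasmin, from 1159.5 ± 67.4 to 774 ± 49.7 (log2 fold change -0.58, adjusted p = 2.11e-07 in limma). Furin, which cleaves the precursors of MMP14, ADAM10 and ADAM17, rose by a log2 fold change of 0.12 (adjusted p = 0.0365), and Pcsk7, a related convertase, by 0.22 (0.0138). Bcl10, a signalling adaptor upstream of NF-kB, rose by 0.18 (0.0135). Among the other inhibitors 2 of 6 rose in high glucose (33.3%, beside the same 13.3%). Cst3, cystatin C, rose from 17318 ± 873 to 20644 ± 123 (log2 fold change 0.25, adjusted p = 1.46e-06) and Cstb, cystatin B, by 0.16 (0.0187). Both inhibit cysteine cathepsins rather than metalloproteinases. The call for Furin was kept only without normal glucose library 1 and was otherwise lost when 1 library was left out (adjusted p of 0.0589 to 0.128). Cstb was lost without normal glucose library 5 (0.0822) or high glucose library 4 (0.0725) or 6 (0.0670), Bcl10 without high glucose library 4 (0.0685) and Pcsk7 without normal glucose library 6 (0.0848).

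Of the 7 ADAM10 and ADAM17 partners tested, 2 rose in high glucose and none fell (28.6%, beside 13.3% of all genes). Tspan5, a tetraspanin that escorts ADAM10, rose from 493 ± 40.0 to 706 ± 28.3 (log2 fold change 0.52, adjusted p = 4.32e-05 in limma). Rhbdf2, the inactive rhomboid that carries ADAM17 to the cell surface in myeloid cells, rose by 0.18 in high glucose (adjusted p = 0.0309) and fell by 0.23 after BMDM-NG-exo (0.0144). The first of these calls was lost without normal glucose library 3, 5 or 6 or high glucose library 1 or 4 (adjusted p of 0.0627 to 0.146), and the second without PBS library 2 or 4 or BMDM-NG-exo library 2 or 3 (0.0546 to 0.0995).

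Of the 22 listed substrates of these sheddases, 7 rose and 2 fell in high glucose (40.9%, beside 13.3% of all genes). Csf1r, the M-CSF receptor and also 1 of the macrophage markers, rose from 92030.1 ± 3798 to 117243 ± 2463 (log2 fold change 0.35, adjusted p = 5.63e-10 in limma). Cxcl16, a membrane-bound chemokine that ADAM10 sheds, rose by 0.34 (1.05e-08), and Cd74, the invariant chain of MHC class II, by 0.48 (5.48e-09). Mertk, a receptor for the uptake of dying cells that ADAM17 cuts and also 1 of the macrophage markers, fell by 0.40 (7.85e-09). After exosomes the called substrates all fell, 6 after BMDM-NG-exo (27.3%, beside 3% of all genes) and 5 after BMDM-HG-exo (22.7%, beside 4.84%). Csf1r, Cxcl16, Notch1, Icam1 and Cd74 were among them in both, with log2 fold changes after BMDM-HG-exo of -0.26, -0.28, -0.33, -0.30 and -0.77. Tnf, the best known substrate of ADAM17, fell after BMDM-NG-exo from 459.5 ± 60.2 to 333 ± 54.5 (log2 fold change -0.47, adjusted p = 0.0203) and was at 387 ± 26.2 after BMDM-HG-exo, where it was not called. Its call was lost without PBS library 1 (0.124) or 2 (0.0557) or BMDM-NG-exo library 2 (0.142). In high glucose Tnf rose from 323 ± 45.6 to 538 ± 60.95 (log2 fold change 0.74, adjusted p = 8.64e-06).

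Of the 11 matrix genes tested, 2 rose in high glucose (18.2%, near the 13.3% of all genes). Spp1, osteopontin, a matrix protein that several metalloproteinases cleave, rose from 43569 ± 1494 to 58874 ± 5021 (log2 fold change 0.43, adjusted p = 5.82e-10 in limma), and Vcan, versican, by 0.65 (1.24e-05). Spp1 also rose after BMDM-HG-exo against PBS, from 47288 ± 2377 to 57043 ± 3324 (log2 fold change 0.27, adjusted p = 3.78e-06), and was the only gene of the 7 lists called against the combined controls (0.21, adjusted p = 0.0382). That call was lost without PBS library 1, 2 or 4 or BMDM-HG-exo library 1, 2 or 3 (adjusted p of 0.0533 to 0.248). Lamc1, a laminin chain, rose by 0.16 after BMDM-HG-exo against PBS (adjusted p = 0.0303), a call lost without PBS library 2 (0.106) or 4 (0.0684) or BMDM-HG-exo library 1 (0.0893) or 4 (0.133).

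The genes whose levels ran most like those of the called genes were found by the root mean square difference in log2(normalised count + 1), each gene centred on its mean, over the 20 libraries. For Mmp19, whose own root mean square was 0.17, they were Emilin2 (difference 0.069), Aldoa (0.073) and Pgam1 (0.073), the last 2 being enzymes of glycolysis. For Mmp8 (own value 0.38) they were Sowahc (0.21), Cxcr4 (0.22) and Slc2a1 (0.22), which encodes the glucose transporter GLUT1. Those for Mmp12 (0.16) were Hpse, heparanase (0.074), Ipo5 (0.075) and Lyst (0.085), and those for Mmp14 (0.36) were F13a1 (0.22), Itgal (0.22) and Ahrr (0.24). For Timp2 (0.096) they were Ctsb, cathepsin B (0.036), Sat1 (0.041) and Pmp22 (0.045), and for Adam17 (0.088) Fyb (0.042), Dock8 (0.045) and B2m (0.047). These likenesses run across libraries of 5 treated groups in 2 experiments and are given as a description.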

How the data were processed

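Polyadenylated and non-polyadenylated RNA of BMDM was measured in 20 libraries made with a SMARTer stranded total RNA kit after removal of ribosomal cDNA. The authors trimmed reads with cutadapt, aligned them with STAR to GRCm38 and counted them with featureCounts, using the strand of read 2, with the counting annotation not given in the sources used here. The deposited signal is 1 table of gene counts that the authors divided by DESeq2 median-ratio size factors, 1 per library. Whole reads were recovered from the step of each column for 100% of values, at a tolerance of 0.001, and gave the library totals. No listed gene had a median under 11 reads. The size factors of PBS library 4 and BMDM-HG-exo library 1 lie within 1% of 1. Ensembl identifiers were matched to GENCODE M21, with 14421 of 14456 genes found.

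Groups came from the treatment in the labels. The 4 label dates pair libraries across the 3 exosome groups by the labels, although deviations of same-date libraries hardly moved together (mean r = 0.012 over 12 pairs, -0.004 over 36 others, across genes). Tests were limma 3.58.1 in R 4.3.3 on log2(normalised count + 1), with a variance trend, two-sided, adjusted by Benjamini-Hochberg over genes whose mean reached 10. The glucose fit used its 8 libraries, the exosome fit its 12, the combined-control comparison its own fit of 2 groups over those 12, and the interaction all 20. Calls needed an adjusted p under 0.05 and, for exosomes, a log2 fold change of at least 0.15. Alternatives were other pseudocounts, filters, scalings, weights and fold limits, no variance trend, a replicate block, edgeR 4.0.16, DESeq2 1.42.0, all 20 libraries in 1 fit and leaving out each library. The fold changes are on the log2(value + 1) scale, which understates changes of low genes, and intervals cover the spread between these libraries only.

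The genes and lists were chosen with earlier results of these data known. Named in the text are all members, every list gene called in an exosome comparison, up to 4 genes per list with the smallest p in high glucose among those called, and the 3 genes nearest to each called member with a mean of at least 50. Mmp13 was added after its values were seen, as a listed gene of the chromosome 9 cluster. Promoter windows are from RefSeq, matched by symbol, with no entry for Mmp9 and Mmp19. Adam8 and Adam10 windows were searched but are not printed, and that of Timp2, with 203 bases in its annotated exons, is left out. The printed first Mmp12 window has 16 bases in annotated exons of Mmp12, and the second lies within the annotated gene. Adam10 holds 1 NF-kB match, 227 to 218 bases before its start, and 1 E-box, 64 to 59 bases before it.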

Additional observations from a re-analysis of the deposited data

Results flagged for a closer look

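Among the 45 groups of 4 libraries examined for the 9 genes, 4 held a library that stood apart from the other 3 by Dixon's test, and chance flags about 1 in 20 groups. Mmp8 was at 1159 normalised counts in PBS library 3, with the other PBS libraries at 822 to 876. The same gene was at 892 in BMDM-NG-exo library 4, below the others at 1059.7 to 1089.7. Mmp9, a gene of few reads, was at 62.0 in PBS library 2, against 15.2 to 21.8 in the other PBS libraries. Adam17 was at 12384 in PBS library 4, against 11733 to 11842 in the others, and that library widened the spread of the group in which Adam17 was highest of the 3 exosome groups.

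For 4 genes the change with glucose differed from the change between BMDM-NG-exo and BMDM-HG-exo in the test of that difference (limma, adjusted p given in the report). On the log2 scale the difference was 0.46 for Mmp19, where high glucose gave 0.40 and BMDM-HG-exo against BMDM-NG-exo gave -0.06. It was 0.50 for Mmp8 (0.44 against -0.06), 0.71 for Mmp14 (0.39 against -0.32) and -0.18 for Timp2 (-0.19 against -0.02). Mmp14 had opposite signs in the 2 comparisons, although neither was called alone. With the replicate number as a block only Mmp19 was called, but there the glucose change rests on 2 shared numbers that mark no known pairing.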

How the results depend on the processing

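Other pseudocounts, TMM factors, no filter on low values, array weights and the fold change limits kept every count of called genes among the 9 within 1.5 times its value in the report. Without a variance trend the count in high glucose went from 4 to 2 (Mmp8 and Mmp19), after BMDM-NG-exo against PBS from 2 to 0 and for the interaction from 4 to 1. With the replicate block it went from 4 to 2 in high glucose (Mmp19 and Timp2 were called, while Mmp8, at 0.36 on the log2 scale, had an adjusted p of 0.0748 and Adam17 one of 0.0725), where only 2 numbers are shared and mark no known pairing, and from 4 to 1 for the interaction. The block changed no other count among the 9 genes. Against the combined controls 0 genes became 1 with DESeq2 and 2 with all 20 libraries in 1 fit, which kept PBS and BMDM-NG-exo as separate groups. Leaving out 1 library gave 4 to 5 genes in high glucose, 0 to 1 against the combined controls, 1 to 2 for BMDM-NG-exo against PBS, 2 in each fit for BMDM-HG-exo against PBS, 0 in each fit between the exosome groups and 1 to 5 for the interaction. The cause was not tested. Over all genes, the calls in high glucose went from 1914 to 654 without a trend and 788 with the block, those after BMDM-NG-exo from 432 to 95 without a trend, those after BMDM-HG-exo from 698 to 295 without a trend, and those of the interaction from 685 to 324 without a trend and 296 with the block. Between the exosome groups the 2 calls became 1 without a trend, with TMM factors or with edgeR, 0 with all 20 libraries in 1 fit, 5 with a pseudocount of 5 or a mean of at least 50, 6 with array weights, 22 with the block and 24 with DESeq2. Against the combined controls the 29 calls became 1 without a trend, 19 after quantile normalisation, 47 with a pseudocount of 5, 49 with array weights, 138 with DESeq2 and 322 with all 20 libraries. That last fit differs also in that the controls were not pooled into 1 group.

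Signs turned only for log2 fold changes that were not called. Adam10 turned in high glucose (-0.026 after quantile normalisation) and against the combined controls (0.0048 after quantile normalisation, 0.0024 with array weights and 0.000209 with DESeq2), and Adam8 turned in the interaction (-0.0064 after quantile normalisation). Leaving out 1 library gave ranges that cross 0 in high glucose for Mmp9 (-0.052 to 1.02) and Adam10 (-0.015 to 0.032), and against the combined controls for Mmp8 (-0.014 to 0.079) and Adam10 (-0.014 to 0.023). Between the exosome groups they did so for Mmp9 (-0.28 to 0.36), Mmp12 (-0.011 to 0.058) and Timp2 (-0.049 to 0.0056), against PBS for Mmp19 after BMDM-NG-exo (-0.060 to 0.024) and Adam10 after BMDM-HG-exo (-0.037 to 0.00050), and in the interaction for Mmp9 (-0.14 to 0.94) and Adam10 (-0.038 to 0.0098). Among the list genes named in the report, quantile normalisation ended the calls of Adamts10, Cstb, Bcl10, Furin and Rhbdf2 in high glucose and of Spp1 against the combined controls, and brought Adam15 and Csf1r after BMDM-HG-exo under the fold limit. The fit without a trend ended the same calls of these genes in high glucose and that of Pcsk7, that of Spp1, those of Adam15, Adamts10, Rhbdf2, Tnf, Csf1r, Cxcl16 and Notch1 after BMDM-NG-exo and those of Adam15 and Lamc1 after BMDM-HG-exo. The block ended those of Adamts10, Cstb, Bcl10, Pcsk7, Furin and Rhbdf2 in high glucose, and all 20 libraries in 1 fit that of Adamts10 after BMDM-NG-exo. A fold limit of 0.15 ended the call of Furin in high glucose, at a log2 fold change of 0.116. The depth of 2 to 56 reads limits Mmp9, and 4 libraries a group limit all values.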
